A study of Mus musculus with 9 samples.

Results

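Ctla2a and Ctla2b encode a pair of small inhibitors of cysteine cathepsins, and Ctsl, Ctsb and Ctss encode cathepsins L, B and S. Their transcripts were measured by bulk RNA-seq in sorted MEPs from mouse bone marrow, which give rise to erythroid cells and megakaryocytes. The 5 genes were found by symbol among the 35275 gene identifiers of the count table, of which 34490 have a symbol. Ctla2a was chosen by its log2 fold change between HS3A8-high and HS3A8-low MEPs, and Ctla2b, its homolog, was taken with it with its own values known. Values of that comparison are therefore given for the 5 genes as a description, without a test. The cathepsins were added as proteases of the family that the inhibitors act on.

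Cysteine cathepsins are proteases of lysosomes and endosomes. Each is made as an inactive precursor whose N-terminal propeptide folds over the active site and is removed in an acidic compartment. Ctla2a and Ctla2b resemble such a propeptide without a protease behind it, and Ctla2a is known to inhibit cathepsin L-like enzymes. Both were first found as transcripts of activated T cells and mast cells. Cathepsin L also processes the precursor of heparanase, the enzyme that cuts heparan sulfate (HS) chains.

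The cells were Lin-ckit+CD34-FcgammaRII/IIIlo bone marrow cells. HS3A8 is a single-chain variable fragment (scFv) antibody that binds HS. HS3A8-high MEPs were the 50% of cells with the strongest HS3A8 binding and HS3A8-low MEPs the 50% with the weakest. Control MEPs were mock-sorted with MPB49, an scFv without HS binding, and stand for total MEPs. The labels name no genetic change and no treatment in any of the 3 groups, and each group had 3 libraries made from 25000 cells each. The study's methods give mice of 6 to 12 weeks. For both HS3A8 fractions its legend names individual mice (n = 3), and nothing in the labels ties a library to an animal. The p-values measure the spread between these libraries.

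The libraries held 11781637 to 15850037 counts. A count of 0 leaves room for 3 counts, which are 0.175 to 0.282 CPM (counts scaled by library total, with TMM factors over the 9 libraries). These limits cover counting error only. Summed levels of 12 erythroid markers were 14323 to 15140 CPM in HS3A8-high libraries and 10947 to 12285 CPM in HS3A8-low libraries. They were 13216 to 14143 CPM in the control, and no marker was at 0 in any group. The 11 megakaryocyte markers summed to 41.9 to 65.1 CPM in HS3A8-high libraries, 154 to 254 CPM in the control and 208.7 to 430 CPM in HS3A8-low libraries. Replicate 3 of both fractions stood apart in 11 granulocyte-monocyte markers, which summed to 1858 CPM in the HS3A8-high library and 4754 CPM in that of HS3A8-low. In the other 7 libraries this sum was between 10.5 and 252 CPM, and none of the 11 markers was at 0 in a group.

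The proteins and promoters are shown first, because near-identical genes can share reads. Ctla2a (ENSMUSG00000044258) lies on the minus strand of chromosome 13 from 60934155 to 60936625 and Ctla2b (ENSMUSG00000074874) on the same strand from 60895350 to 60897447, in GRCm38 coordinates. A gap of 36.7 kb separates them. The annotated Ctla2a protein has 137 residues and that of Ctla2b 113, and residues 25 to 137 of Ctla2a align with all of Ctla2b at 102 identical positions (90.3%). Their coding sequences were 96.2% identical over the 339 bases of Ctla2b. Residues 16 to 135 of Ctla2a aligned with residues 5 to 132 of the 334 residues of Ctsl, the propeptide end of the protease, at 35.8% identity. Against Ctss, residues 33 to 98 of Ctla2a aligned with residues 30 to 96 of 341 at 45.5% identity. Against Ctsb the best-scoring local match spanned 12 aligned residues of Ctla2a and 24 of Ctla2b.

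How much exact sequence both transcripts shared depended on the length compared. Of the 100-base windows in annotated transcripts, 1.11% of those of Ctla2a occurred in Ctla2b and 1.47% of those of Ctla2b in Ctla2a. With 50-base windows the shares were 11.4% and 14.8%, and with 150-base windows no window was shared. The read length and the handling of multiply mapping reads are not given in the sources used here, so the split of reads between both genes is uncertain. Annotated genes of the same locus, Gm49391, Gm49392 and Gm49393, cover 16.3% of the exon bases of Ctla2a and 68.7% of those of Ctla2b. None of them has a row in the count table. A gene overlapping in 12.8% of the exon bases of Ctsb, Fdft1, does have a row, and 26.8% of the exon bases of Ctsl lie under genes without one. No annotated gene overlaps the exons of Ctss.

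The 250 bases before the outer start site of Ctla2a and before that of Ctla2b are printed because both inhibitors moved together, and a reader can see how much of this flank they share. The sequences are from RefSeq (GRCm38.p6), on the minus strand, at chr13:60936626-60936875 for Ctla2a and chr13:60897448-60897697 for Ctla2b. Capitals mark TGACTCA and TGACGT.
Ctla2a: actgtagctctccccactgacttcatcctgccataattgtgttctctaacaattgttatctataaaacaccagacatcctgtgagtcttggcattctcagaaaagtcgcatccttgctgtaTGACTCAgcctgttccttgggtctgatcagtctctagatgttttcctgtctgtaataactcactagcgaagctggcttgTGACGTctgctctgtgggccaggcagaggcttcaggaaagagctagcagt
Ctla2b: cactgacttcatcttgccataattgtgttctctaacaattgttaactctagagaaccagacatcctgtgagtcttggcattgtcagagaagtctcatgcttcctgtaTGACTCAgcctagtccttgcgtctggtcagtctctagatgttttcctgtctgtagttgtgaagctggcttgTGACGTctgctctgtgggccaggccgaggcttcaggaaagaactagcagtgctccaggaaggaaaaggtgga
Over 228 aligned bases both flanks were identical at 91.7%. TGACTCA, the letters of an AP-1 or NF-E2 core, began 129 bases before the start site of Ctla2a and 143 bases before that of Ctla2b. TGACGT, part of a CRE, began at 50 and 72 bases. On either strand, TGACTCA occurs in 4.46% and TGACGT in 6.47% of 32851 RefSeq promoter windows of the same length. Neither occurred in the windows of Ctsl and Ctss. The start site used for Ctsl, 64370520, and its window lie within the annotated gene, so bases before the outer end of Ctsl were not searched. Of the other letters searched, TGACGTCA and TGTGGT matched none of these 4 windows, AGATAA matched Ctla2a once, AGGAAG matched Ctla2b at 2 places, and CANNTG matched every one of the 4. The 7 motifs overlap in part (TGACGTCA contains TGACGT), they were chosen after the sequences had been seen, and a match is a description only. RefSeq has a further start site of Ctla2a at 60936566, within the gene, and its window also has both capitalised matches. In that window AGGAAG matched once, while AGATAA and CANNTG did not match.

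Ctla2a was nearly absent from HS3A8-high MEPs. Its counts there were 17, 17 and 40, which are 1.07, 1.28 and 2.65 CPM. HS3A8-low MEPs had 779, 2152 and 1958 counts, or 45.6, 151 and 165 CPM. The MPB49 control had 1353, 877 and 965 counts, or 127, 55.9 and 70.8 CPM. Every HS3A8-high library was below every library of the other groups, whereas HS3A8-low and control libraries overlapped, with the lowest value of these 6 in HS3A8-low replicate 1. The order of the means was HS3A8-low (120.4 ± 65.2 CPM, SD, n = 3), control (84.6 ± 37.6) and HS3A8-high (1.66 ± 0.857), and the first and second in this order differed by less than their SD. In bulk libraries, fewer cells with a transcript and less transcript per cell cannot be told apart.

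Ctla2b, the shorter homolog, followed the same order at a lower level. HS3A8-high libraries had 0, 0 and 1 counts. HS3A8-low libraries had 57, 100 and 78 counts (3.33, 7.03 and 6.55 CPM) and control libraries 70, 66 and 44 counts (6.58, 4.21 and 3.23 CPM). Again HS3A8-high was below all other libraries, and HS3A8-low (5.64 ± 2.01 CPM) and the control (4.67 ± 1.73) overlapped. The gene passed the filter on low counts only through the HS3A8-low and control libraries.

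**Figure D1:**
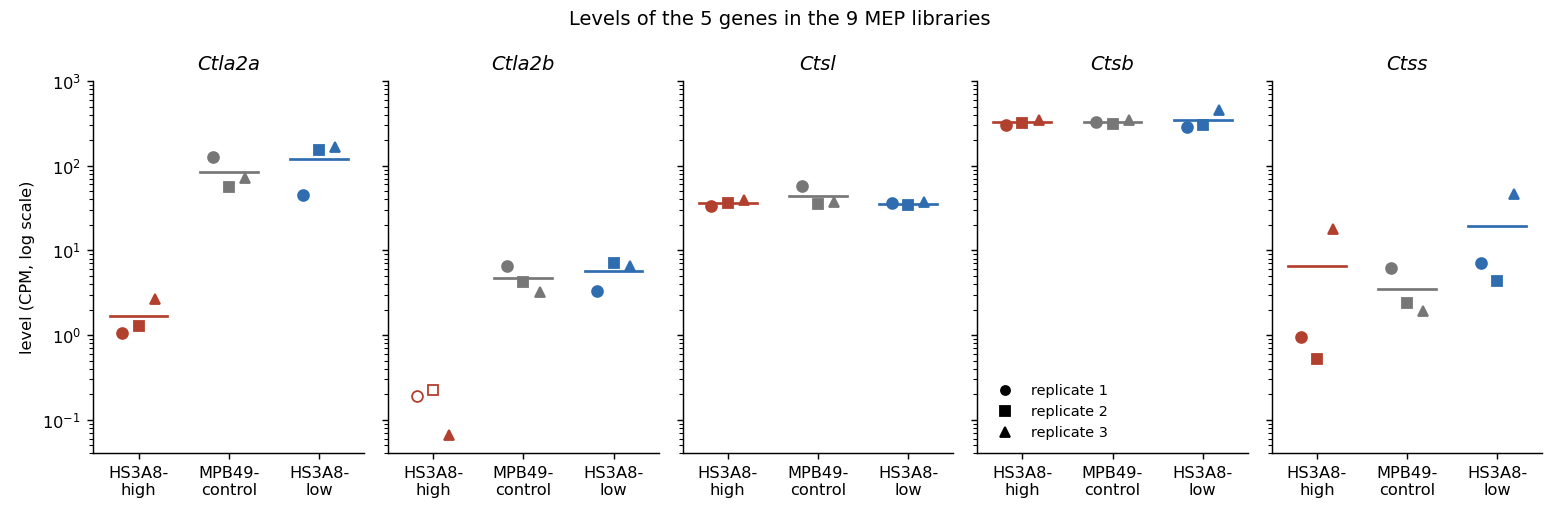
Levels of the 5 genes in CPM on a log axis, 1 symbol per library and 1 line per group mean. Open symbols are libraries with a count of 0, drawn at the limit of 3 counts; the mean of Ctla2b in HS3A8-high lies under the axis range and has no line. Ctla2a and Ctla2b in HS3A8-high lie below every other library, the groups overlap in Ctsl and Ctsb, and Ctss is highest in replicate 3 of both fractions.

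Cathepsin L transcripts did not follow those of the inhibitors. Ctsl (ENSMUSG00000021477, chromosome 13, 64359337 to 64370890, minus strand) lies 3.42 Mb from Ctla2a. Its levels were 33.5, 35.8 and 39.1 CPM in HS3A8-high, 36.0, 34.1 and 36.9 CPM in HS3A8-low and 58.2, 35.7 and 37.0 CPM in the control. All groups overlapped, and only control replicate 1 stood above the rest. Ctsb (ENSMUSG00000021939, chromosome 14, 63122462 to 63145923, plus strand), a cathepsin with an additional exopeptidase activity, was the most abundant of the 5 genes. It was at 302.6, 322 and 350.1 CPM in HS3A8-high, 283 to 451 CPM in HS3A8-low and 310.03 to 345 CPM in the control. HS3A8-low replicate 3 was the highest Ctsb library, and the groups overlapped.

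Ctss (ENSMUSG00000038642, chromosome 3, 95526786 to 95556403, plus strand) encodes cathepsin S, known for trimming the invariant chain in antigen-presenting cells, and varied most between replicates. It was at 0.941, 0.527 and 18.1 CPM in HS3A8-high, 7.08, 4.36 and 46.0 CPM in HS3A8-low, and 6.11, 2.36 and 1.91 CPM in the control. Replicate 3 was highest in both fractions, and HS3A8-high overlapped with the other groups only through it. HS3A8-low and the control overlapped without replicate 3 too. These are the libraries with the high granulocyte-monocyte marker sum, and among the other cathepsins Ctsg (77.5 and 197 CPM) and Ctsh (17.5 and 62.4 CPM) were also highest there. In the other 7 libraries Ctsg reached at most 8.995 CPM and Ctsh 6.40 CPM. The part of these marker genes in the Ctss values was not tested.

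**Figure D2:**
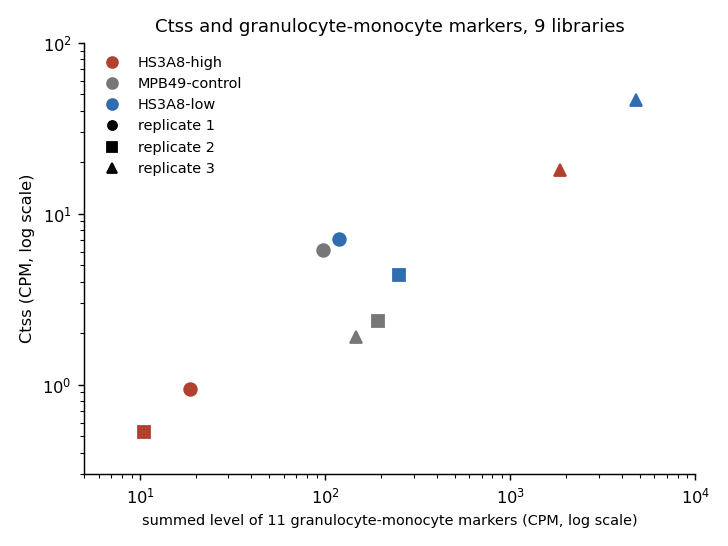
Ctss in CPM against the summed CPM of 11 granulocyte-monocyte markers, both on log axes, 1 symbol per library. Replicate 3 of HS3A8-high and HS3A8-low (triangles) sits at 1858 and 4754 CPM of markers with 18.1 and 46.0 CPM of Ctss, and the other 7 libraries have at most 7.08 CPM of Ctss.

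Between genes, levels are compared per kilobase of merged exon. The values depend on the length used, which was 2108 bases for Ctla2a, 1723 for Ctla2b, 6489 for Ctsl and 6051 for Ctsb. On that scale Ctla2a was at 57.1 ± 30.9 CPM per kb in HS3A8-low, beside Ctsb at 57.3 ± 15.05, and at 40.2 ± 17.9 in the control, where Ctsb was at 54.1 ± 2.86. Ctsl was at 5.50 ± 0.221 CPM per kb in HS3A8-low and 5.57 ± 0.431 in HS3A8-high. In HS3A8-high, Ctla2a was at 0.789 ± 0.406 CPM per kb. Ctla2a and Ctla2b together were 4.24, 14.4 and 14.4 times the level of Ctsl per kb in the HS3A8-low libraries and 7.15, 5.26 and 6.22 times in the control. In HS3A8-high this ratio was 0.0980, 0.110 and 0.215. On plain CPM, without length, it was 1.36, 4.64 and 4.64 in HS3A8-low, 2.30, 1.68 and 2.002 in the control and 0.0318, 0.0357 and 0.0694 in HS3A8-high. On either scale the transcripts of both inhibitors exceeded those of cathepsin L in 6 of 6 HS3A8-low and control libraries and in 0 of 3 HS3A8-high libraries.

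Ctla2b was a small and fairly even fraction of the pair. Its level per kb was 8.95%, 5.69% and 4.87% of that of Ctla2a in HS3A8-low and 6.33%, 9.21% and 5.58% in the control. HS3A8-high gave 0%, 0% and 3.06%, the last from a single count. At Ctla2a counts of 17 to 40, a fraction as in the other groups would be expected to yield few Ctla2b counts, so whether the fraction changed was not detectable at this depth.

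**Figure D3:**
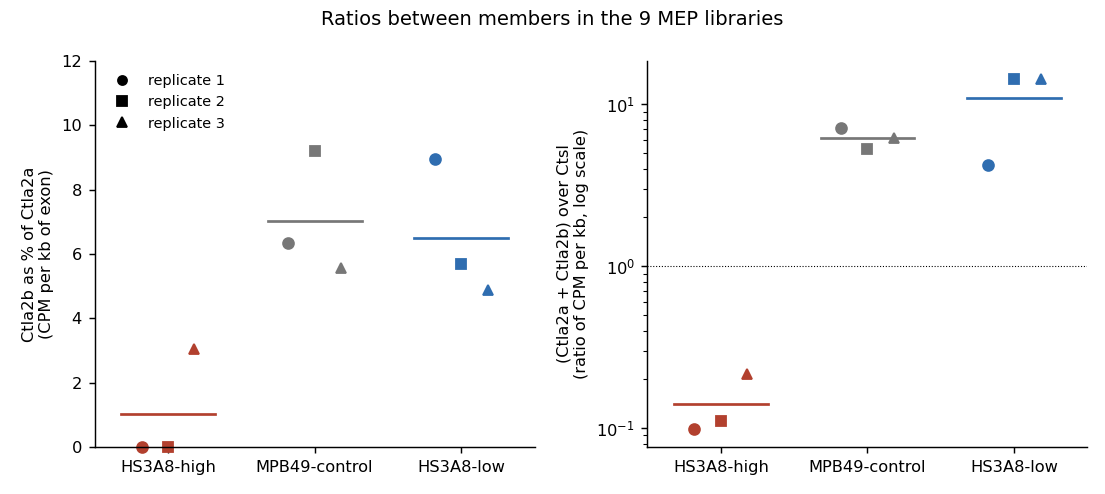
Left, Ctla2b as a percentage of Ctla2a, and right, the sum of both divided by Ctsl on a log axis, from CPM per kb of exon; symbols are libraries and lines group means. The right panel shows HS3A8-high between 0.0980 and 0.215 and the other 6 libraries between 4.24 and 14.4, with the dotted line at equal levels.

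The comparison of HS3A8-high with HS3A8-low MEPs asks which genes differ between the parts of the MEP gate that bind HS3A8 strongly and weakly. The fitted log2 fold change, HS3A8-high over HS3A8-low, was -6.19 (SE 0.63) for Ctla2a, and the ratio of mean CPM was 72.4-fold. For Ctla2b, 1 count stood against 235, which is a 241-fold difference after scaling, with a 95% exact interval of 42.9 to 9563 that covers counting error only. Its fitted value of -7.52, or -9.29 without replicate 3 of both groups, depends on the prior count and is not a bound. Ctsl had a log2 fold change of -0.01 (SE 0.11) and Ctsb one of -0.12 (SE 0.18). Ctss had -1.58 (SE 1.40) and, with the replicate number as a block, -2.18 (SE 0.37), and it was lower in HS3A8-high in 3 of 3 replicate pairs. Without HS3A8-high replicate 3 its value was -4.68, without HS3A8-low replicate 3 it was 0.15, and without both it was -2.95. Groups did not overlap for 2 of the 5 genes, beside 28.7% of the 11791 genes tested, and the choice of the inhibitors used this contrast.

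Ctla2a ranked 26th and Ctla2b 14th from the lowest log2 fold change among these 11791 genes. Ctla2a was selected on this order among the 328 genes that had an adjusted p under 0.05, no overlap and a mean CPM of 5 or more. Next to it in that order were Tcf7 (-6.39) and Fgf3 (-6.37) on one side and Trbc1 (-5.79) and Rora (-5.52) on the other. Ctla2b, with a mean of 2.83 CPM over the 6 sorted libraries, lay under that minimum.

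The comparisons with the MPB49 control place each fraction against total MEPs. They share the control libraries. The choice of the inhibitors used the HS3A8 libraries, so that their differences from the control are given as a description too, without a test. In HS3A8-high MEPs the log2 fold change of Ctla2a over the control was -5.63 (SE 0.48), the ratio of mean CPM was 50.9-fold, and 3 of 3 libraries lay below every control library. Leaving out 1 library kept the value between -6.14 and -5.24. Ctla2b, at 1 count against 180, was 199.8-fold lower, with an exact 95% interval of 35.4 to 7936 for counting error. Over all 11486 genes tested, edgeR called 0.0174% lower and 0.0% higher in HS3A8-high, with 562 genes at an unadjusted p under 0.05, and DESeq2 called 143 genes. Groups without overlap, as for both inhibitors, made up 14.2% of the genes tested, and nothing is read from these shares for the inhibitors.

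The cathepsins, added as proteases of the family, were tested and did not pass. In HS3A8-high the log2 fold change was -0.25 for Ctsl (SE 0.21, edgeR quasi-likelihood test, Benjamini-Hochberg adjusted p = 0.733) and 0.00 for Ctsb (SE 0.13, adjusted p = 0.994). For Ctss it was 0.95 (SE 1.24, adjusted p = 0.770), and it turned to -2.18 without HS3A8-high replicate 3 (adjusted p = 0.589). These p-values miss the threshold and do not show equal levels.

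HS3A8-low MEPs overlapped with the control in each of the 5 genes. The log2 fold change, HS3A8-low over control, was 0.51 for Ctla2a (SE 0.51) and 0.27 for Ctla2b (SE 0.43). On leaving out 1 library Ctla2a ran from 0.24 to 0.92 and Ctla2b from 0.07 to 0.59. Without replicate 3 of both groups the values were 0.08 and -0.08. No cathepsin passed the threshold. Ctsl had -0.29 (adjusted p = 0.840), Ctsb 0.08 (adjusted p = 0.947) and Ctss 2.48 (SE 0.96, adjusted p = 0.815), the last falling to 0.76 without HS3A8-low replicate 3. The edgeR test called 0.0% of 11878 genes, with 673 at an unadjusted p under 0.05, and DESeq2 called 93 genes. No overlap between groups was found for 12.8% of the genes tested and for none of the 5.

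**Figure D4:**
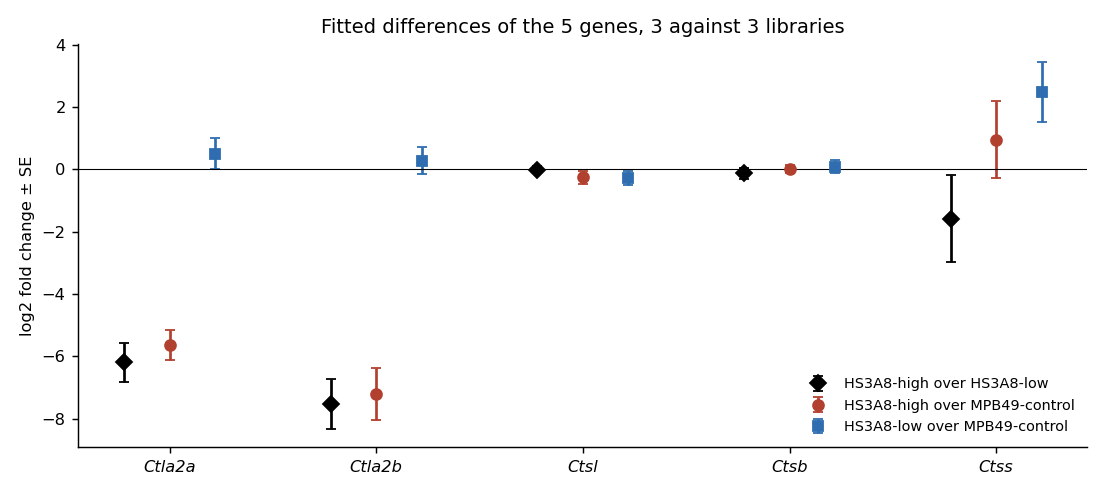
Fitted log2 fold changes of the 5 genes with standard errors in 3 comparisons of 3 against 3 libraries. Ctla2a and Ctla2b lie at -7.52 to -5.63 in both comparisons of HS3A8-high and at 0.27 and 0.51 in HS3A8-low over control; the Ctla2b values depend on the prior count, and Ctss has the widest errors.

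If total MEPs were an even mix of both fractions, a control level would equal the mean of the fraction means. The control was 1.39 times that mean for Ctla2a, 1.65 times for Ctla2b, 1.22 times for Ctsl and 0.975 times for Ctsb. The control means of Ctla2a, Ctla2b and Ctsl include control replicate 1, at 127, 6.58 and 58.2 CPM, the highest control library of each. The other control libraries had 55.9 and 70.8 CPM of Ctla2a, 4.21 and 3.23 of Ctla2b, and 35.7 and 37.0 of Ctsl. For Ctss the control was 0.270 times that mean, since the fraction means include the high replicate 3 libraries.

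Among the 11 other cathepsins, 10 had counts and were tested, and all 10 had a fitted value below 0 in HS3A8-high over HS3A8-low, with a median log2 fold change of -0.85 beside -0.03 over all genes. The values ran from -5.42 to -0.01 and were not a uniform shift. The value nearest 0 (SE 0.23) turned to 0.04 with the replicate number as a block. Only Ctsw, a cathepsin known from NK and cytotoxic T cells, fell past the threshold with edgeR. DESeq2 called 3 of the 10, among them Ctsw and Ctso, where it called 1224 of 18095 genes. Ctsw was at 0.188, 0.150 and 0.397 CPM in HS3A8-high libraries, 6.61, 13.1 and 12.4 CPM in HS3A8-low libraries and 5.93, 3.25 and 1.91 CPM in control libraries (log2 fold change -5.42, SE 0.50, adjusted p = 0.0071). Without HS3A8-low replicate 2 its adjusted p was 0.0685. For comparison, edgeR called 3.21% of all genes lower and 0.611% higher in HS3A8-high. With the replicate number as a block, Ctsc, Ctsh and Ctso also passed, where 8.27% of all genes were called lower and 3.32% higher. Ctso had a blocked log2 fold change of -0.70 (SE 0.14, adjusted p = 0.0335). Ctsh had -1.97 (SE 1.74) without the block and -2.55 (SE 0.41, adjusted p = 0.0200) with it, and it turned to 0.73 without HS3A8-low replicate 3. Ctsc went from -1.01 (SE 0.48) to -0.29 without that library. The abundant Ctse, an aspartic protease (713 ± 18.7 CPM in HS3A8-high, 711 ± 64.6 in HS3A8-low), and Ctsd, the main lysosomal aspartic protease (519 ± 11.4 and 527 ± 37.6), had log2 fold changes of -0.02 and -0.05 that did not pass. Against the control, edgeR called none of the 10 in either fraction. An unadjusted p under 0.05 was reached by 2 in each, and DESeq2 called Ctsw lower in HS3A8-high.

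The inhibitors have close relatives in position as well. Between 500 kb before Ctla2b and 500 kb after Ctla2a lie 14 annotated protein-coding genes, 10 of them with 0 counts in all 9 libraries. The silent genes include the placental cathepsins Ctsj, Ctsq, Ctsr, Cts6, Cts7, Cts8 and Ctsll3 and the trophoblast genes Tpbpa and Tpbpb, and over the whole list of 9 placental cathepsins no count was found. Counts were found for Ctla2a, Ctla2b, Dapk1 and 4930486L24Rik. Dapk1, a death-associated kinase gene, was at 41.8 ± 2.38 CPM in HS3A8-high MEPs and 37.9 ± 21.5 CPM in HS3A8-low MEPs (log2 fold change 0.11, SE 0.38, adjusted p = 0.909). 4930486L24Rik had 52 counts in all and was not tested, with means of 0.0942, 0.589 and 0.604 CPM in HS3A8-high, HS3A8-low and control MEPs.

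Of 23 cystatins and other inhibitors of cysteine cathepsins, 21 had a row, 8 had counts and 4 were tested. All 4 had fitted values below 0 in HS3A8-high over HS3A8-low (median -1.58, beside -0.03 over all genes). Of these 1 passed the threshold, where 3.21% of all genes were called lower. Serpina3g, a serpin known to inhibit cathepsins B and L in lymphocytes, was at 3.77, 0.527 and 2.45 CPM in HS3A8-high, 64.5, 62.3 and 59.2 CPM in HS3A8-low and 25.0, 37.4 and 36.8 CPM in the control. Its log2 fold change was -4.78 (SE 0.54, adjusted p = 0.0128), with an adjusted p of 0.0543 and 0.0930 without HS3A8-low replicates 1 and 2. The control lay between the fractions in every library. Cst3, the secreted cystatin C, was at 123 ± 25.5 and 238 ± 94.0 CPM (log2 fold change -0.97, SE 0.28, adjusted p = 0.113), and Cst7, cystatin F of immune cells, at 6.31 ± 5.40 and 28.2 ± 9.51 CPM (-2.18, SE 0.64, adjusted p = 0.119). Both passed with the replicate block (adjusted p = 0.0086 and 0.0131), where 8.27% of all genes were called lower. They also passed without replicate 3 of both groups (-0.76, adjusted p = 0.0350, and -2.78, adjusted p = 0.0224). DESeq2 called 3 of the 4, Serpina3g, Cst3 and Cst7, where it called 1224 of 18095 genes. Without HS3A8-low replicate 3 Cst3 had -0.61, and without HS3A8-high replicate 3 Cst7 had -3.08 with an adjusted p of 0.0341. Cstb, the cytosolic stefin B, had -0.40 (SE 0.29, adjusted p = 0.495). Against the control edgeR called none of the 4, with 1 in HS3A8-high and 2 in HS3A8-low at an unadjusted p under 0.05. DESeq2 called Serpina3g in both comparisons and Cst7 in HS3A8-low.

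The 27 genes of lysosome delivery and content had fitted values in both directions. In HS3A8-high over HS3A8-low, 10 had values above 0 and 17 below, with a median of -0.10 beside -0.03 over all genes. The threshold was passed by 2, both lower, where 3.21% of all genes were called lower and 0.611% higher. Cd63, a tetraspanin of late endosomes, was at 20.5, 23.6 and 31.6 CPM in the HS3A8-high libraries and 43.2, 62.4 and 75.5 CPM in the HS3A8-low libraries (log2 fold change -1.28, SE 0.24, adjusted p = 0.0392). Laptm5, a lysosomal membrane protein of hematopoietic cells, was at 89.9, 76.3 and 171 CPM and at 312, 283 and 357 CPM (-1.53, SE 0.30, adjusted p = 0.0412). Both calls were lost on leaving out any 1 of 5 libraries, all but HS3A8-high replicate 3, with adjusted p from 0.0577 to 0.161 for Cd63 and 0.0794 to 0.153 for Laptm5. With the replicate block 5 genes of the list passed, all lower, among them Cd68 and Psap, beside 8.27% of all genes called lower. DESeq2 called 3 genes of the list, among them Cd63 and Laptm5, beside 1224 of 18095 genes. Without the block Cd68 had -1.40 (SE 1.16), which turned to 0.18 without HS3A8-low replicate 3 and was -3.38 without HS3A8-high replicate 3. Psap had -0.46 (SE 0.29), and -0.15 without HS3A8-low replicate 3. The regulators Tfeb and Tfe3, which drive lysosomal genes, had log2 fold changes of -0.24 and 0.18, the mannose 6-phosphate receptor M6pr, which carries cathepsins to lysosomes, 0.07, and the membrane protein Lamp1 0.06, none past the threshold. Against the control edgeR called no gene of this list, with 1 in HS3A8-high and 4 in HS3A8-low at an unadjusted p under 0.05, and DESeq2 called Laptm5 in HS3A8-low.

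**Figure D5:**
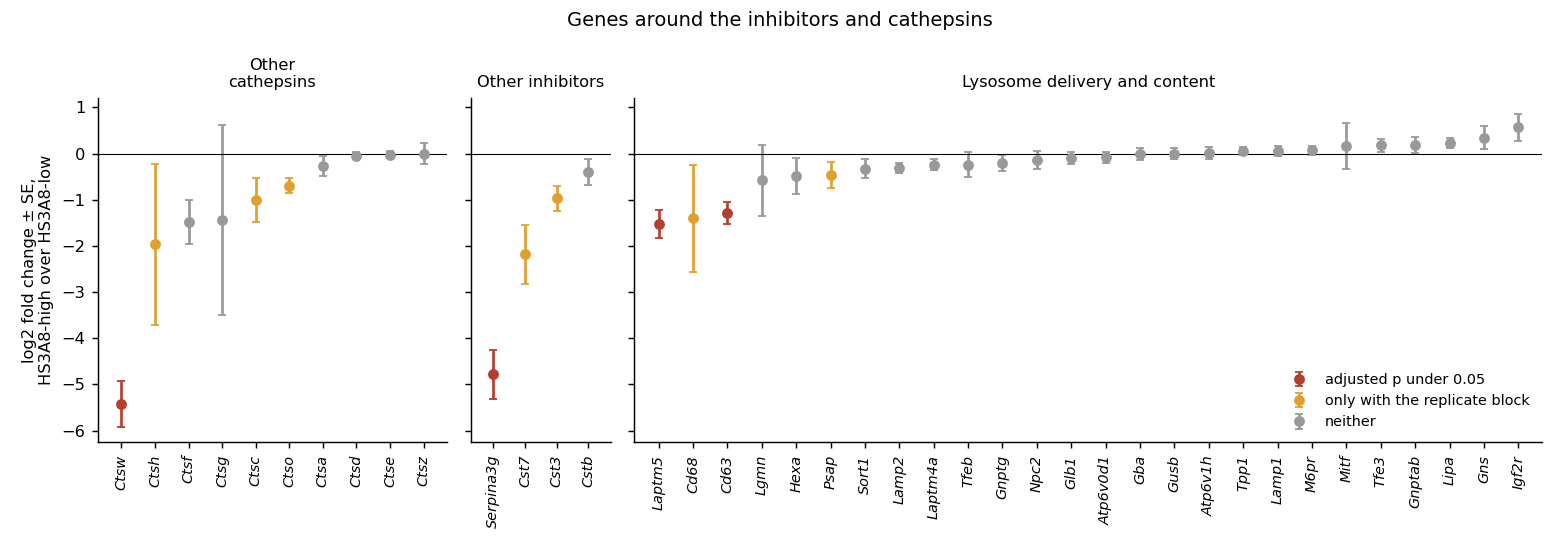
Fitted log2 fold changes, HS3A8-high over HS3A8-low, with standard errors for genes of 3 lists, colored by whether the adjusted p was under 0.05. Ctsw (-5.42) and Serpina3g (-4.78) stand apart, and most genes of lysosome delivery and content lie near 0.

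In HS3A8-high against HS3A8-low, markers of some other cell types were called lower and those of others missed the threshold. Of all genes, edgeR called 3.21% lower and 0.611% higher, and DESeq2 called 1224 genes. Each tested granulocyte-monocyte (9), mast cell and basophil (3) and B cell (2) marker had a fitted value below 0. The 9 T and NK markers summed to 4.59 to 36.6 CPM in HS3A8-high libraries, 192 to 248 CPM in HS3A8-low libraries and 56.5 to 122 CPM in control libraries. None was at 0 in a group. By edgeR 3 of the 9 (Trbc1, Tcf7, Nkg7) were called lower in HS3A8-high than in HS3A8-low, and DESeq2 called 5. The 11 stem and multipotent progenitor markers summed to 48.4 to 72.3, 239.6 to 295 and 166 to 179.7 CPM. By edgeR 3 of 10 tested were called lower (Meis1, Hlf, Mycn), and DESeq2 called 9. Procr was at 0 in HS3A8-high. Of the megakaryocyte markers 4 of 9 tested were called lower by edgeR, among them Itga2b, Pf4 and Fli1, and DESeq2 called 6. Gp6 was at 0 in HS3A8-high. The 8 mast cell and basophil markers, of cells in which Ctla2a is known, summed to 1.63, 2.48 and 80.7 CPM in HS3A8-high libraries, 21.1, 27.1 and 166 CPM in HS3A8-low libraries and 10.05 to 23.1 CPM in the control, with Mcpt4 at 0 throughout and 0 of 3 tested called by edgeR (2 at an unadjusted p under 0.05, 1 by DESeq2, Cpa3). None of the 9 tested granulocyte-monocyte markers was called by edgeR or DESeq2 or reached an unadjusted p under 0.05, while 5 were called lower in HS3A8-high with the replicate block. Without the block edgeR called 2 of 7 tested macrophage and dendritic markers (H2-Ab1, Cd74, both lower), with it 5, and DESeq2 called 3. This list summed to 36.9 to 139.7 CPM in HS3A8-high libraries and 219.98 to 488 CPM in HS3A8-low libraries. B cell markers summed to 1.35 to 5.22 CPM in HS3A8-high libraries, 10.1 to 13.6 CPM in HS3A8-low libraries and 4.14 to 10.4 CPM in the control. By edgeR 0 of 2 tested were called (1 at an unadjusted p under 0.05 and by DESeq2, Cd79b). Ms4a1 and Pax5 were at 0 in every group. Finally 3 of 4 tested endothelial markers were called lower by edgeR (Tek, Emcn, Pecam1), and DESeq2 called the same 3. With the replicate block 2 were called. The other tested marker had a fitted value above 0, and Cdh5 was at 0 in every group. Of the 12 erythroid markers edgeR called Car1 higher, and DESeq2 called Car1 and Ermap. With the replicate block 4 were called, all higher, where 3.32% of all genes were called higher. Without the block 7 had fitted values above 0 and 5 below. The part of these cells in the levels of Ctla2a and Ctla2b was not tested.

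Over the 9 libraries, log2 CPM of Ctla2a and Ctla2b had a Pearson r of 0.995 and a Spearman rho of 0.895. Against Ctla2a, r was 0.30 for Ctsl, 0.25 for Ctsb and 0.48 for Ctss. Among the 9328 genes that averaged 5 CPM or more, the 5 closest to Ctla2a were Rgs1 (r = 0.970), a regulator of G protein signalling, Dusp2 (0.969), a phosphatase of MAP kinases, Ifitm1 (0.965), the early response gene Ier3 (0.965) and Ypel3 (0.965). Ctla2b shared 4 of them and had the class II gene H2-Ob (0.970) in place of Rgs1. Rgs1 was at 0.903 to 6.15 CPM in HS3A8-high libraries, 43.2 to 74.0 CPM in HS3A8-low libraries and 24.8 to 49.2 CPM in the control. Dusp2 was at 9.25 to 14.9, 48.5 to 66.9 and 31.5 to 54.9 CPM. In each of these genes the HS3A8-high libraries are the 3 lowest, so that r describes this step more than variation within groups, and the 9 points share 3 groups. Ranked by Spearman rho instead, 0 of the 5 genes recurred for either inhibitor.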

How the data were processed

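For 9 bulk RNA-seq libraries of sorted mouse MEPs, the authors deposited raw read counts per gene, whole numbers without normalization, in 9 columns, 1 per library. The authors aligned reads to mm10 with STAR 2.5, and the submitters' processing notes also name HTSeq 0.6.1. The annotation release, strand setting and handling of multiply mapping reads are not given in the sources used here. Gene identifiers were joined to GENCODE M21 (GRCm38). Reference sequences came from GENCODE M21 transcripts and, for promoters, RefSeq (GRCm38.p6), which had an entry for 4 of the 5 genes and none for Ctsb.

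Counts were tested with the quasi-likelihood test of edgeR 4.0.16 in R 4.3.3 (TMM, filterByExpr, Benjamini-Hochberg adjustment over all genes tested, adjusted p under 0.05), with only the 6 libraries of the 2 groups in each of 3 comparisons. The method was tested on simulated counts. CPM in the text are TMM-scaled over all 9 libraries, and CPM per kb use merged exon length. Identities come from Biopython 1.88 alignments of translated transcripts. Alternatives were DESeq2 1.42.0, its size factors, no count filter, all 9 libraries in 1 fit, a replicate block, each library left out, other window lengths, and Spearman rho and another prior count for genes of like pattern. Removing replicate 3 of both groups was added after seeing the data. Depth was 11781637 to 15850037 counts per library.

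Deviations from the group mean were shared by same-numbered libraries of both fractions (r from 0.346 to 0.518 over 11791 genes, and from -0.484 to 0.114 for different numbers), so that the numbers were taken to pair these fractions. The labels name no shared animal or sort. The fit without a block, planned as the main one with the block as an alternative, stayed the main one. Its p-values for HS3A8-high against HS3A8-low leave the pairing by number out. It called 451 genes there, and the blocked fit called 1367.

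The members, lists and rules were chosen with earlier results of these data known. The 5 members are always named. Of each list of pathway genes, those past the threshold are named and otherwise up to 4 of the highest mean CPM, besides the 5 genes of the highest Pearson r to each inhibitor, every protein-coding gene with a count within 500 kb, and 2 genes on each side of Ctla2a in the order that chose it. Single values of 2 genes of the lists are not reported here. Other genes of the lists and the silent genes of the locus were named after their values had been seen.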

Additional observations from a re-analysis of the deposited data

How the results depend on the processing

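The log2 fold changes of Ctla2a, Ctsl and Ctsb between HS3A8-high and HS3A8-low moved by less than the spread between replicates in each of 12 alternatives, with Ctla2a between -6.69 and -5.90 on leaving out 1 library. Ctla2b ran from -9.36 to -7.04 when 1 library was left out and was -9.29 without replicate 3 of both groups, and Ctss ran from -4.68 to 0.15. Between HS3A8-high and the control, Ctla2a moved by less than that spread in each of 12 alternatives, while Ctla2b ran from -9.00 to -6.70 when 1 library was left out and was -9.21 without replicate 3 of both groups. The Ctla2b values of -9.36, -9.29, -9.00 and -9.21 are from fits without HS3A8-high replicate 3, which held the only Ctla2b count of that group. The cause of the other shifts was not tested. The number of genes called between HS3A8-high and HS3A8-low was 451, and 1224 with DESeq2, 1367 with the replicate block, 748 without replicate 3 of both groups and 0 to 439 on leaving out 1 library, lowest without HS3A8-low replicate 2 and within 1.5 times of 451 only without HS3A8-high replicate 3. Of the pathway lists 4 genes were called, and 9, 12, 8 and 0 to 5 under the same settings. Between HS3A8-high and the control 2 genes were called, and 143 with DESeq2, 9 without a count filter, 32 in a fit of all 9 libraries, 0 with the block and without replicate 3 of both groups, and 0 to 5 on leaving out 1 library. DESeq2 and the fit of all 9 libraries each called 2 genes of the pathway lists there. DESeq2 called 93 genes, 3 of them in the pathway lists, between HS3A8-low and the control, where edgeR called 0. The control libraries did not pair with either fraction by number (same-number r from -0.222 to -0.0742 with HS3A8-high and -0.354 to 0.0282 with HS3A8-low), and the block moved the count of genes called from 2 to 0 for HS3A8-high and from 0 to 0 for HS3A8-low. It changed no call of a cathepsin. Leaving out 1 library leaves 2 against 3, and counts of 0 or 1 per library limit what can be said of Ctla2b in HS3A8-high.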
